A study of Mus musculus with 6 samples.

Results

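The forkhead transcription factors FOXO1, FOXO3 and FOXO4, and 7 genes known as their targets (Fbxo32, Bcl2l11, Bcl6, Gadd45a, Txnip, Sesn3 and Klf6), were examined in a mouse lung cancer cell line after knockdown of Pik3ca. The members were the probe sets whose platform annotation gives exactly 1 gene symbol that is one of these 10 genes, which gave 29 of the 45037 probe sets tested and 10 of the 18193 genes. The groups were 3 arrays of 344SQ cells with PIK3CA shRNA and 3 arrays of 344SQ cells with control shRNA, a short hairpin RNA being a transcript that silences its matching messenger RNA. All 6 samples came from the same line, grown in RPMI medium with serum, and the hairpin vectors were brought in with a lipid reagent. The cells' age, any selection step and the time after transfection are not given in the sources used here. No label ties the replicates to separate cultures. The p-values therefore cover the spread among these 6 arrays alone, and that spread may be technical.

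FOXO proteins sit at the end of the phosphoinositide 3-kinase (PI3K) pathway. PI3K makes a membrane lipid that activates the kinase AKT, and AKT phosphorylates FOXO proteins, which then leave the nucleus and stop activating their targets. When AKT is less active, FOXO proteins stay in the nucleus and raise genes for cell cycle arrest, cell death, protein breakdown, autophagy and stress defence. That control acts on the proteins, which an expression array does not measure, so the data below concern the messenger RNAs of the factors and of their targets.

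The values are linear intensities, scaled to a common median, with per-array medians of 134.6 to 135.0 as deposited. Pik3ca, which encodes the catalytic subunit that the hairpin targets, read 1235 ± 14.3 in PIK3CA shRNA cells and 2379.7 ± 63.6 in control shRNA cells (SD, n = 3 each), which is 51.9% of control. That was its brightest probe set. Others read 47.6%, 48.6%, 59.4% and 61.0% of control. The dimmest, at 135 ± 16.5 and 140 ± 45.5 (SD, n = 3 each), was at 96.6% of control and overlapped between the groups. Of 11 epithelial markers, 1 rose and the other 10 did not pass limma's test over all genes, which 11.5% of all genes passed. The E-cadherin gene Cdh1 was bright, at 11046 ± 81.4 in PIK3CA shRNA cells and 11345 ± 238 in control shRNA cells (SD, n = 3 each). The tight-junction gene Ocln rose, at 868 ± 81.2 in PIK3CA shRNA cells and 428 ± 25.6 in control shRNA cells (SD, n = 3 each), a log2 change of 0.99 (limma adjusted p = 0.00346). Another epithelial marker, Esrp1, was below the pseudocount of 16, at 4.83 ± 0.904 and 4.54 ± 1.13 (SD, n = 3 each), and the dimmer of the Epcam probe sets was lower past the threshold over all probe sets (-0.86) while its brightest was not past it (-0.33). The epithelial list summed to 53348 to 54044 in PIK3CA shRNA cells and 53339 to 56278 in control shRNA cells. The leukocyte gene Ptprc was at 58.6 ± 7.42 and 63.2 ± 28.7 (SD, n = 3 each). Of 13 measured leukocyte markers, 2 rose, or 15.4%, with a median change of -0.03 over the list and 6 members above 0 and 7 below. Their summed level was 2893 to 3609.9 in PIK3CA shRNA cells and 2374 to 2663 in control shRNA cells. Most of that difference lay in Cd14, at 1712 ± 184 and 1083 ± 8.33, and Fcgr3, at 221 ± 12.3 and 70.2 ± 10.5 (SD, n = 3 each). Fibroblast markers summed to 775 to 1190.1 and 899 to 1026, and endothelial markers to 983 to 1139 and 1025 to 1097, in PIK3CA and control shRNA cells, and no marker was listed at 0. The fibroblast gene Dcn fell, at 37.6 ± 2.79 in PIK3CA shRNA cells and 74.1 ± 8.76 in control shRNA cells (SD, n = 3 each), a change of -0.75 (limma adjusted p = 0.00920), and its other probe set read 0.09. The part of these markers in the results below was not tested. Fewer cells of a type and less RNA per cell cannot be told apart in such bulk samples.

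Among the 10 genes, 3 were higher and 2 lower in PIK3CA shRNA cells, and 5 did not pass the test. Fbxo32, Bcl2l11 and Gadd45a rose, and Foxo3 and Bcl6 fell. The test was limma's on log2(intensity + 16), with p-values adjusted by Benjamini-Hochberg over 18193 genes and called under 0.05, each gene being represented by its brightest probe set. Over all genes, 11.5% passed that threshold. By direction, 5.87% of all genes were higher and 5.63% lower. All 10 genes were above the median brightness of all genes, and the part of brightness in these shares was not tested. In 9 of the 10 genes, all but Sesn3, the groups were free of overlap between arrays, against 33.1% of all genes. The 10 genes were chosen with earlier results of these data known, and the part of that in these shares was not tested. A change below is the PIK3CA shRNA mean minus the control mean on that log2 scale, on which dim genes change less than their intensities do. The median change was 0.21 over the 10 genes and -0.01 over all genes.

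**Figure D1:**
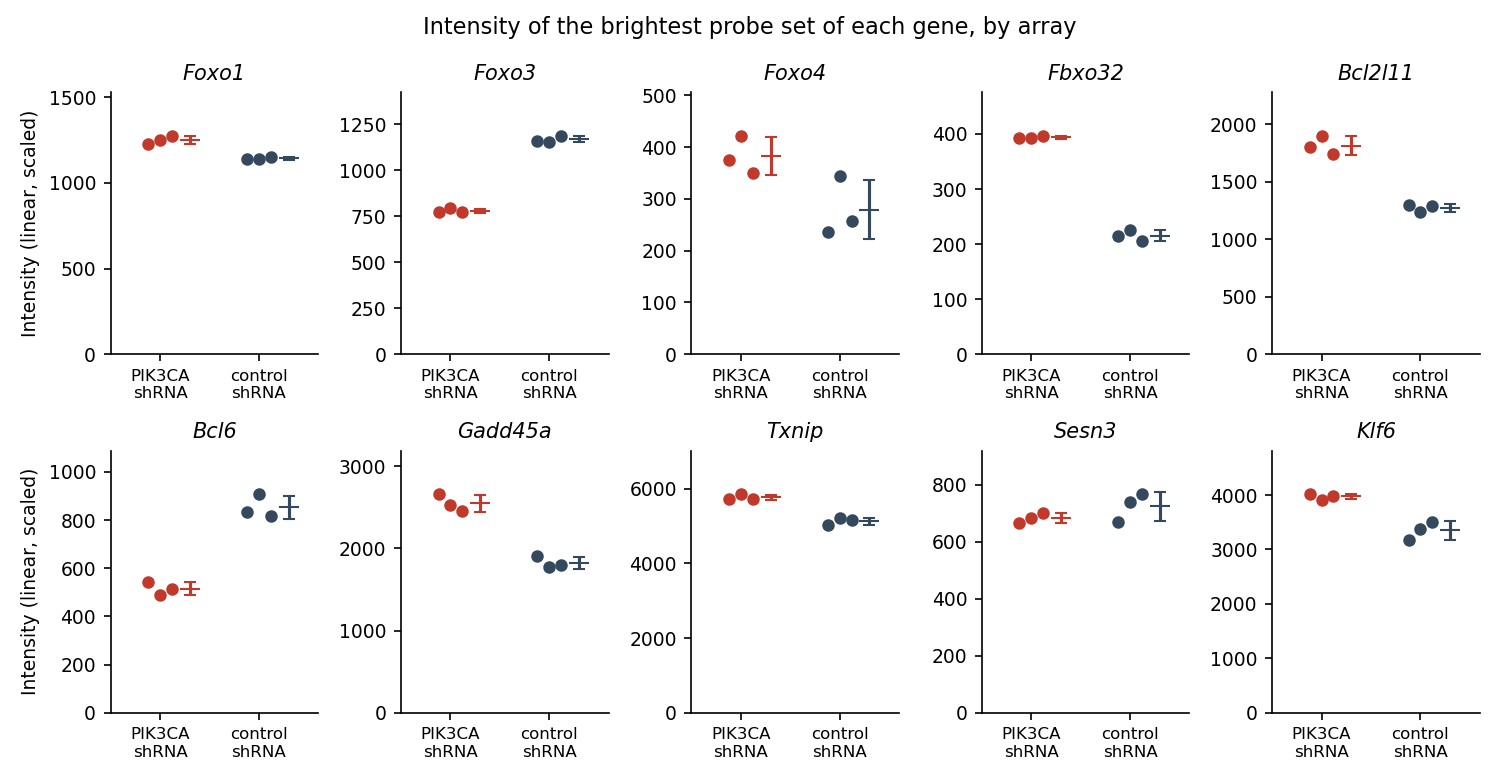
Intensity of the brightest probe set of each of the 10 genes (vertical axes, linear, scaled to a common median, starting at 0) on each array, PIK3CA shRNA in red on the left and control shRNA in dark blue on the right; the bar beside the points is the mean ± SD of 3 arrays. The groups are apart in every panel but that of Sesn3, and the gap is widest, relative to the points' spread, in Foxo3 and Fbxo32.

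Of the FOXO factors, Foxo3 was the one that changed past the threshold. Foxo3 encodes a factor that drives arrest and death genes in many tissues. Its intensity was 771, 792 and 774 in PIK3CA shRNA cells, against 1161, 1155 and 1187 in control shRNA cells. Every PIK3CA shRNA array was lower than every control array by a gap far wider than the spread within either group. The means were 779 ± 11.2 and 1168 ± 17.1 (SD, n = 3 each), or 66.7% of control. The log2 change was -0.57, standard error 0.05 (95% interval -0.70 to -0.44, limma adjusted p = 0.00345). The second Foxo3 probe set read 744 ± 35.6 in PIK3CA shRNA cells and 905 ± 60.5 in control shRNA cells (SD, n = 3 each), a change of -0.28 that did not pass over all probe sets (adjusted p = 0.144). The third was dim, at 24.2 ± 4.89 and 38.2 ± 9.47 (SD, n = 3 each). All 3 Foxo3 probe sets thus read lower in PIK3CA shRNA cells, the second being at 82.3% of control.

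Foxo1, the factor best known for its part in insulin response, did not pass. Its intensity was 1229, 1249 and 1275 in PIK3CA shRNA cells, against 1137, 1139.95 and 1151 in control shRNA cells. The groups did not overlap, but the shift was small: 0.13 with a standard error of 0.05 (95% interval -0.00064 to 0.26, limma adjusted p = 0.195). Of the other 3 Foxo1 probe sets, 2 read higher (0.23 and 0.07) and the dimmest read lower, at 46.2 ± 12.96 in PIK3CA shRNA cells and 79.4 ± 12.4 in control shRNA cells (SD, n = 3 each). Taken as the mean of its probe sets Foxo1 read -0.05, and as that dim probe set, which has the largest interquartile range, -0.63, so its direction depends on the probe set.

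Foxo4, the X-linked member of the family, read 375, 422 and 349 in PIK3CA shRNA cells, against 236, 344 and 258 in control shRNA cells. The lowest PIK3CA shRNA array lay just above the highest control array. The change of 0.44 had a standard error of 0.16 (95% interval 0.06 to 0.83) and did not pass (limma adjusted p = 0.143). A second, dim Foxo4 probe set overlapped between the groups, at 101 ± 43.8 and 67.8 ± 46.3 (SD, n = 3 each).

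The factors were also set against each other within arrays. The change of Foxo3 minus that of Foxo1 was -0.70, and minus that of Foxo4 -1.02, on the log2 scale. Each had an exact two-sided permutation p of 0.1, the smallest that 3 arrays against 3 allow. Foxo1 and Foxo4 differed by -0.32 (exact permutation p = 0.2). Over the 12 pairs of probe sets compared, these p-values adjusted to 0.3, 0.3 and 0.48.

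By the likeness of their log2 values over the 6 arrays, among genes above the median brightness, Foxo3 was followed most closely by Kctd15 (Pearson r = 0.999), Nup133 (0.999) and Trim2 (0.998). For Foxo1 these were Hddc3 (0.997), Flt4 (0.996) and Txnl4a (0.996), and for Foxo4 Slc1a5 (0.993), Prr12 (0.984) and Bola3 (0.982). The 6 points form 2 groups that share their treatment, so for Foxo3 and Foxo1 any gene with a clear group difference of the same sign scores high. The Foxo4 matches Slc1a5, Prr12 and Bola3 changed by 0.12, 0.25 and 0.17. Like Foxo4 they did not pass (limma adjusted p = 0.278, 0.249 and 0.171). The genes named are the highest of all those compared, and the values are a description. Kctd15 itself was at 147, 159.9 and 142 in PIK3CA shRNA cells and 469.6, 493 and 527 in control shRNA cells.

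Fbxo32 had the largest rise of the 7 target genes at the pseudocount of 16. It encodes atrogin-1, the ubiquitin ligase subunit that marks muscle proteins for breakdown when FOXO factors are active. Its intensity was 393, 393 and 397 in PIK3CA shRNA cells, against 214, 225 and 205 in control shRNA cells. Both groups were tight, at 394 ± 2.43 and 215 ± 10.1 (SD, n = 3 each), or 183% of control. The log2 change was 0.83 with standard error 0.06 (95% interval 0.68 to 0.98, limma adjusted p = 0.00167). A second Fbxo32 probe set rose by the same amount, 0.82, at 197 ± 33.1 and 104 ± 12.4 (SD, n = 3 each), and passed over all probe sets (adjusted p = 0.0375). The third, the dimmest, read 114 ± 26.5 and 47.9 ± 22.9 (SD, n = 3 each) and did not pass (adjusted p = 0.106). Trim63, which encodes the partner ligase MuRF1 of muscle atrophy, was at 4.42 ± 1.05 in PIK3CA shRNA cells and 5.36 ± 2.96 in control shRNA cells (SD, n = 3 each), below the pseudocount in both groups.

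Bcl2l11 encodes BIM, a pro-apoptotic protein of the BCL2 family that FOXO3 is known to induce. Its intensity was 1799, 1900.02 and 1742 in PIK3CA shRNA cells, against 1298, 1234 and 1289 in control shRNA cells. The lowest PIK3CA shRNA array stood well above the highest control array. Means were 1814 ± 80.0 and 1274 ± 34.6 (SD, n = 3 each), or 142% of control, and the log2 change was 0.50, standard error 0.06 (95% interval 0.35 to 0.66, limma adjusted p = 0.00858). All 5 Bcl2l11 probe sets read higher in PIK3CA shRNA cells, by 0.34 to 0.65. Only the brightest passed over all probe sets, and the probe set of largest interquartile range read 0.64 with an adjusted p of 0.189 over genes. Of the 10 tested genes nearest to Bcl2l11 on chromosome 2, 3 were higher and 0 lower by the same limma test. Over all genes 5.87% were higher and 5.63% lower. The neighbours had a median change of 0.32, and the part of that stretch in the rise was not tested.

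Gadd45a, a growth arrest and DNA damage gene, has 1 probe set here. It read 2657, 2523 and 2454 in PIK3CA shRNA cells, against 1899.9, 1770.2 and 1792 in control shRNA cells. The groups were far apart, with means of 2545 ± 103 and 1821 ± 69.3 (SD, n = 3 each). Its rise of 0.48 had a standard error of 0.06 (95% interval 0.32 to 0.64, limma adjusted p = 0.0103).

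Bcl6 went the other way. It encodes a zinc finger repressor of germinal centre B cells and other tissues, whose transcription FOXO factors are known to raise. Its intensity was 542, 488 and 515 in PIK3CA shRNA cells, against 832, 908 and 819 in control shRNA cells. Every PIK3CA shRNA array was lower, at 60.4% of control on average, with means of 515 ± 27.3 and 853 ± 47.9 (SD, n = 3 each). The log2 change was -0.71, standard error 0.07 (95% interval -0.89 to -0.53, limma adjusted p = 0.00475). The other Bcl6 probe set gave the same change, -0.71, at 113 ± 21.2 and 194 ± 18.5 (SD, n = 3 each), and missed the threshold over all probe sets (adjusted p = 0.0520).

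The remaining targets did not pass. Klf6, a zinc finger tumour suppressor gene, read 4015, 3917 and 3989.9 in PIK3CA shRNA cells, against 3167, 3384 and 3509 in control shRNA cells. The groups were apart, but the shift of 0.25 (95% interval 0.09 to 0.40) had a limma adjusted p of 0.0666. All 5 Klf6 probe sets read higher in PIK3CA shRNA cells, by 0.20 to 0.32, with adjusted p over all probe sets of 0.134 to 0.423. With a pseudocount of 64, with dim genes left out, or with an intensity trend and a robust prior, Klf6 passed at adjusted p 0.0396, 0.0362 and 0.00698.

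Txnip encodes the thioredoxin-interacting protein, which restrains glucose uptake and thioredoxin. Its values of 5709, 5848 and 5723 in PIK3CA shRNA cells stood above 5013, 5199.6 and 5162 in control shRNA cells. The change was small, 0.17 with a standard error of 0.05 (95% interval 0.04 to 0.30, limma adjusted p = 0.113), and it passed with the intensity trend and robust prior (adjusted p = 0.00550). The second Txnip probe set overlapped, at 2721 ± 204 and 2313 ± 662 (SD, n = 3 each). Sesn3, a sestrin that dampens mTOR complex signalling under stress, was at 664, 684 and 701 in PIK3CA shRNA cells, against 667, 739 and 766 in control shRNA cells. Those groups overlapped, and the change of -0.08 (95% interval -0.26 to 0.10) did not pass (limma adjusted p = 0.562).

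**Figure D2:**
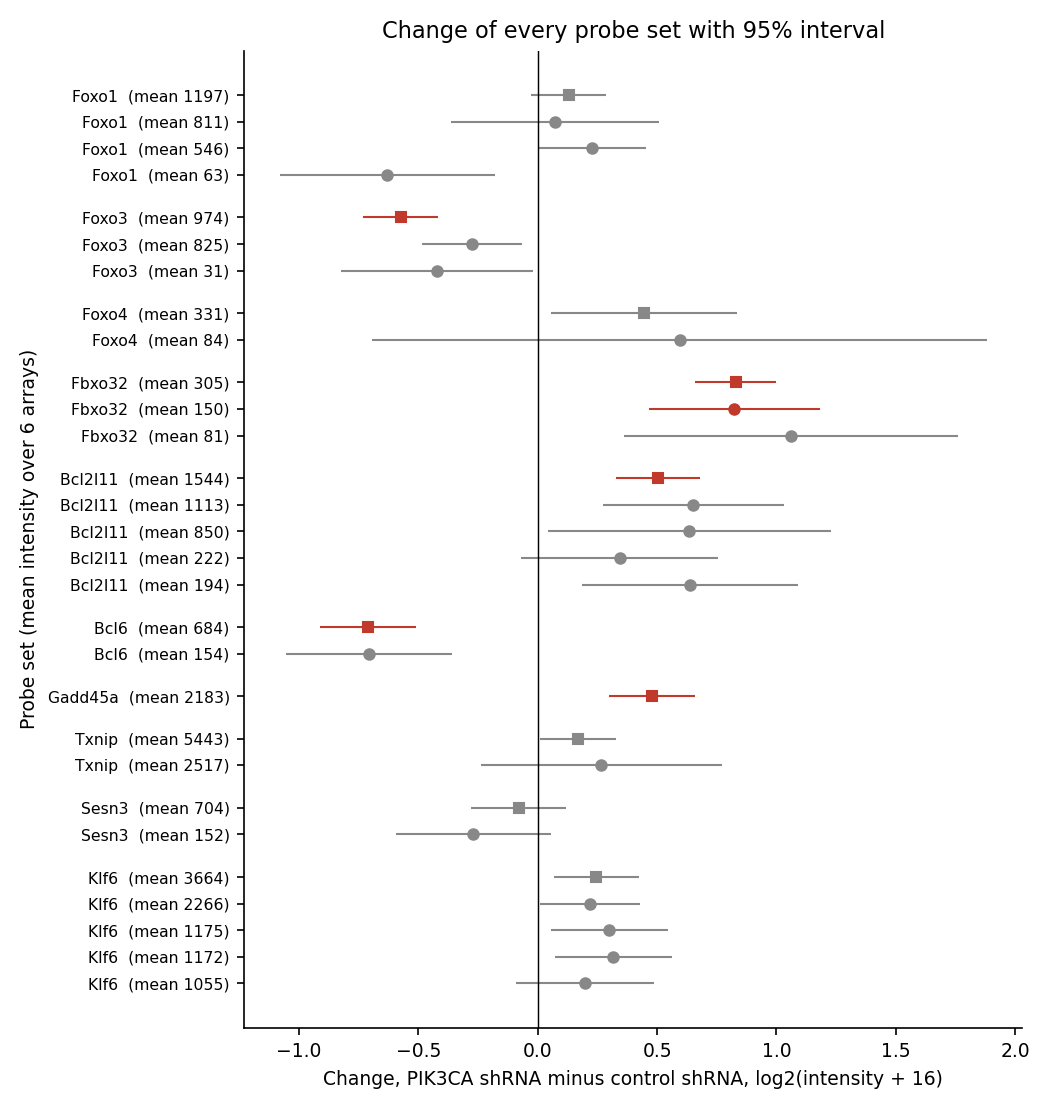
Change of each of the 29 probe sets, PIK3CA shRNA mean minus control mean as log2(intensity + 16) (horizontal axis), with its 95% interval from limma; rows are probe sets, labelled with the gene and the mean intensity over 6 arrays, squares mark the brightest probe set of a gene, and red marks adjusted p under 0.05 over all probe sets. The probe sets of Fbxo32, Bcl2l11 and Klf6 all lie right of 0 and those of Foxo3, Bcl6 and Sesn3 all lie left of it, while those of Foxo1 lie on both sides.

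Counted as probe sets, 4 of the 29 were higher and 2 lower past the threshold over all probe sets. Of all probe sets 4.95% passed, with 2.64% higher and 2.3% lower. The 6 were 2 of Fbxo32 and 1 each of Foxo3, Bcl2l11, Bcl6 and Gadd45a. The groups did not overlap in 20 of the 29, against 27.3% of all probe sets. Probe sets of 1 gene share its transcripts and are not replicates. Leaving out 1 array left the count of 5 genes as it was, whichever array it was. The count of 6 probe sets fell to 1 without control shRNA replicate 2, to 2 without PIK3CA shRNA replicate 1 or 3, to 3 without control shRNA replicate 1 or 3, and to 4 without PIK3CA shRNA replicate 2.

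**Figure D3:**
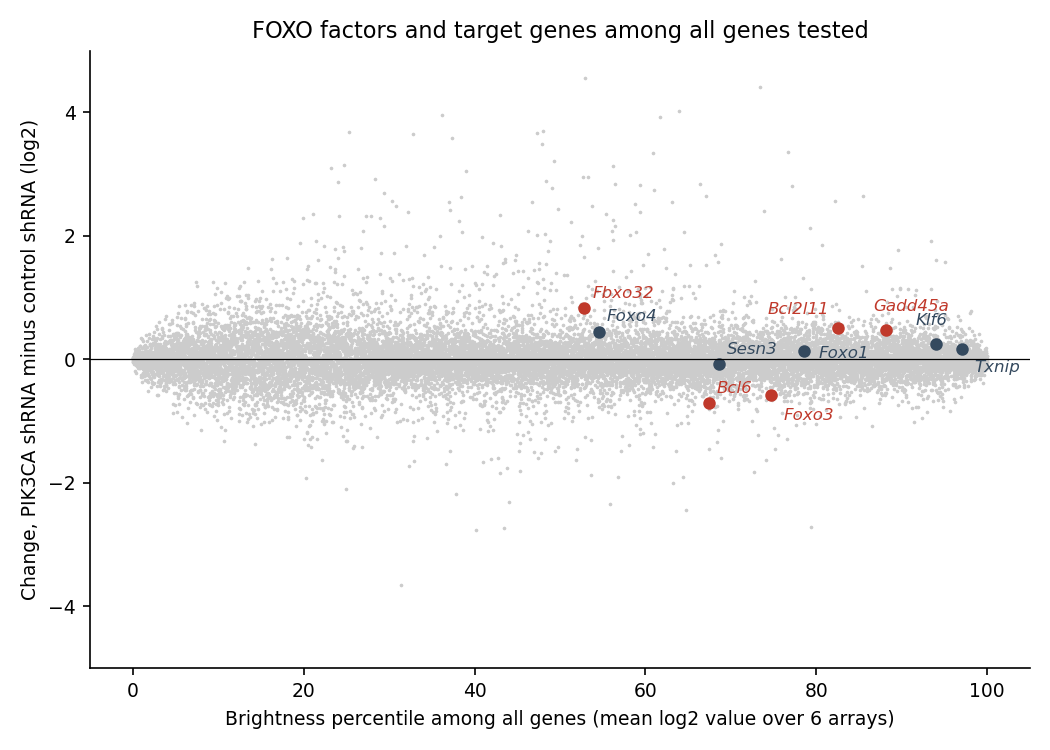
Change of every gene tested (grey, 18193 genes), PIK3CA shRNA mean minus control mean in log2 units (vertical axis), against the percentile of its mean log2 value over the 6 arrays (horizontal axis); the 10 FOXO genes are named, in red where they passed adjusted p 0.05 and in dark blue where they did not. The largest changes among them, 0.83 in Fbxo32 and -0.71 in Bcl6, are small beside the outermost grey points.

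FOXO proteins bind DNA at a short forkhead element. RefSeq promoter windows of assembly GRCm38.p6, from 250 bases before to 50 bases after a gene's annotated start, were searched for GTAAACA on both strands (TGTTTAC on the opposite one). A window was at hand for 8 of the 10 genes. Fbxo32 and Foxo4 had none and were not searched. Of the 8, 2 held the motif, Bcl2l11 and Txnip, while 6 did not. Over all 27025 genes with a window, 4.05% held it. A gene counted where any of its windows held the motif, which was chosen after values were seen. The 2 windows are shown because Bcl2l11 rose past the threshold and Txnip, with the same letters in its window, did not; capitals mark the motif.
Bcl2l11: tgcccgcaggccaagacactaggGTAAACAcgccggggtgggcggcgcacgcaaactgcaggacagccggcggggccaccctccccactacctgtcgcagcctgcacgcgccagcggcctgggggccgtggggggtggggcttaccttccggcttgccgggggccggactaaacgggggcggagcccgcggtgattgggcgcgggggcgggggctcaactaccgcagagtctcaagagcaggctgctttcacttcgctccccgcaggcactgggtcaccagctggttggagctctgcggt
Txnip: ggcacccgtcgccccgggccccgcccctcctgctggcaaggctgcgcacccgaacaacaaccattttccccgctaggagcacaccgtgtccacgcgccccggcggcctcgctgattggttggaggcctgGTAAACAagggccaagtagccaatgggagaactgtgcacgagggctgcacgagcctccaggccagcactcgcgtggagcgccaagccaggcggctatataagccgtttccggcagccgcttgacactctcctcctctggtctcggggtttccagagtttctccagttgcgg
The Bcl2l11 window is chr2:128125788-128126087 on the plus strand, with the motif beginning 227 bases before the start, and it is 1 of 2 windows of that gene, the other holding no motif. The Txnip window is chr3:96557707-96558006 on the plus strand, with the motif beginning 121 bases before the start. A match to these letters is a description and not a bound site, and no binding was measured.

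Of 59 other genes listed as FOXO targets, 55 were measured, and 8 rose, 5 fell and 42 did not pass limma's test, which is 23.6% against 11.5% of all genes. Of the 55, 40 were above the median brightness of all genes, and the list was chosen with earlier results of these data known. The part of either in that share was not tested. The median change of the list was -0.04, beside -0.01 over all genes, with 24 members above 0 and 31 below. Leaving out any 1 of the 6 arrays lowered the count of 13 to between 5 and 8, and it was 7 when probe sets were averaged per gene. Without any 1 array, 5 or 6 genes passed as higher and 0 to 3 as lower by limma's test, with none lower in 4 of those 6 fits. Under the replicate block, and likewise at an adjusted p of 0.01, 2 passed and both were higher. Most listed targets did not pass.

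Cdkn2b had by far the largest change of these 55 at the pseudocount of 16. It encodes an inhibitor of the cyclin D kinases CDK4 and CDK6, which holds cells in G1. Its intensity was 1721, 1551 and 1730.4 in PIK3CA shRNA cells, with a mean of 1667 ± 101, against 252 ± 19.7 in control shRNA cells (SD, n = 3 each). That is 6.62-fold, or 2.65 ± 0.08 on the log2 scale (standard error; limma adjusted p = 0.000134). Cdkn2b has 1 probe set here. Of the 10 tested genes nearest to it on chromosome 4, 3 were higher and 0 lower by limma, beside 5.87% and 5.63% of all genes. These neighbours had a median change of -0.07. The part of that stretch in the rise was not tested. The drug efflux pump gene Abcb1a was at 5349 ± 55.6 in PIK3CA shRNA cells and 3349.5 ± 109 in control shRNA cells (SD, n = 3 each), and both of its probe sets rose (0.67 and 0.71). Abcb1a has a close paralog beside it, Abcb1b, and cross-hybridisation was not tested. Smaller rises were found in the pluripotency factor gene Klf4 (0.46), the stem cell factor gene Kitl (0.44), the receptor gene Erbb3 (0.41) and the glutathione peroxidase gene Gpx1 (0.36). Cyclin G2, a growth-arrest cyclin encoded by Ccng2, was at 4211 ± 64.5 and 3467 ± 95.3 (SD, n = 3 each), a rise of 0.28 (limma adjusted p = 0.0319). Gabarapl1, an autophagosome gene, rose by 0.35. No probe set of Ccng2 or Gabarapl1 passed over all probe sets. Another Erbb3 probe set read -0.13.

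The fall that the probe sets shared most fully was in Ppargc1a, the coactivator of mitochondrial biogenesis. It was at 463 ± 9.64 in PIK3CA shRNA cells and 743 ± 102 in control shRNA cells (SD, n = 3 each), and all 5 of its probe sets passed, with changes from -1.20 to -0.57. Autophagosome gene Map1lc3b fell (-0.34), in contrast to Gabarapl1, as did the mitochondrial peroxidase gene Prdx3 (-0.41). The CDK inhibitor gene Cdkn1a fell too (-0.43). The only Prdx3 probe set did not pass over all probe sets. Sesn1, a sestrin gene, was at 1069 ± 46.9 in PIK3CA shRNA cells and 1403 ± 46.7 in control shRNA cells (SD, n = 3 each), a fall by 0.39 on the log2 scale (limma adjusted p = 0.0186), though 1 of its 4 probe sets read 0.07.

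Several textbook targets did not pass. Cdkn1b, a CDK inhibitor gene and classic FOXO target, was at 4193 ± 162 in PIK3CA shRNA cells and 4191 ± 114 in control shRNA cells (SD, n = 3 each), a change of 0.00038. The insulin receptor gene Insr was likewise at 1186 ± 22.3 and 1183 ± 31.1 (SD, n = 3 each). Irs2, the insulin receptor adaptor gene, changed by -0.24, and Pik3ip1, which encodes a PI3K inhibitor, by -0.12, with limma adjusted p of 0.491 and 0.527. Klf2, a zinc finger factor gene of quiescent T cells and endothelium, was at 100.3, 68.2 and 141 in PIK3CA shRNA cells, with a mean of 103 ± 36.3, against 219 ± 35.1 in control shRNA cells (SD, n = 3 each). It read -1.02 but was dim, and its adjusted p was 0.0588.

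**Figure D4:**
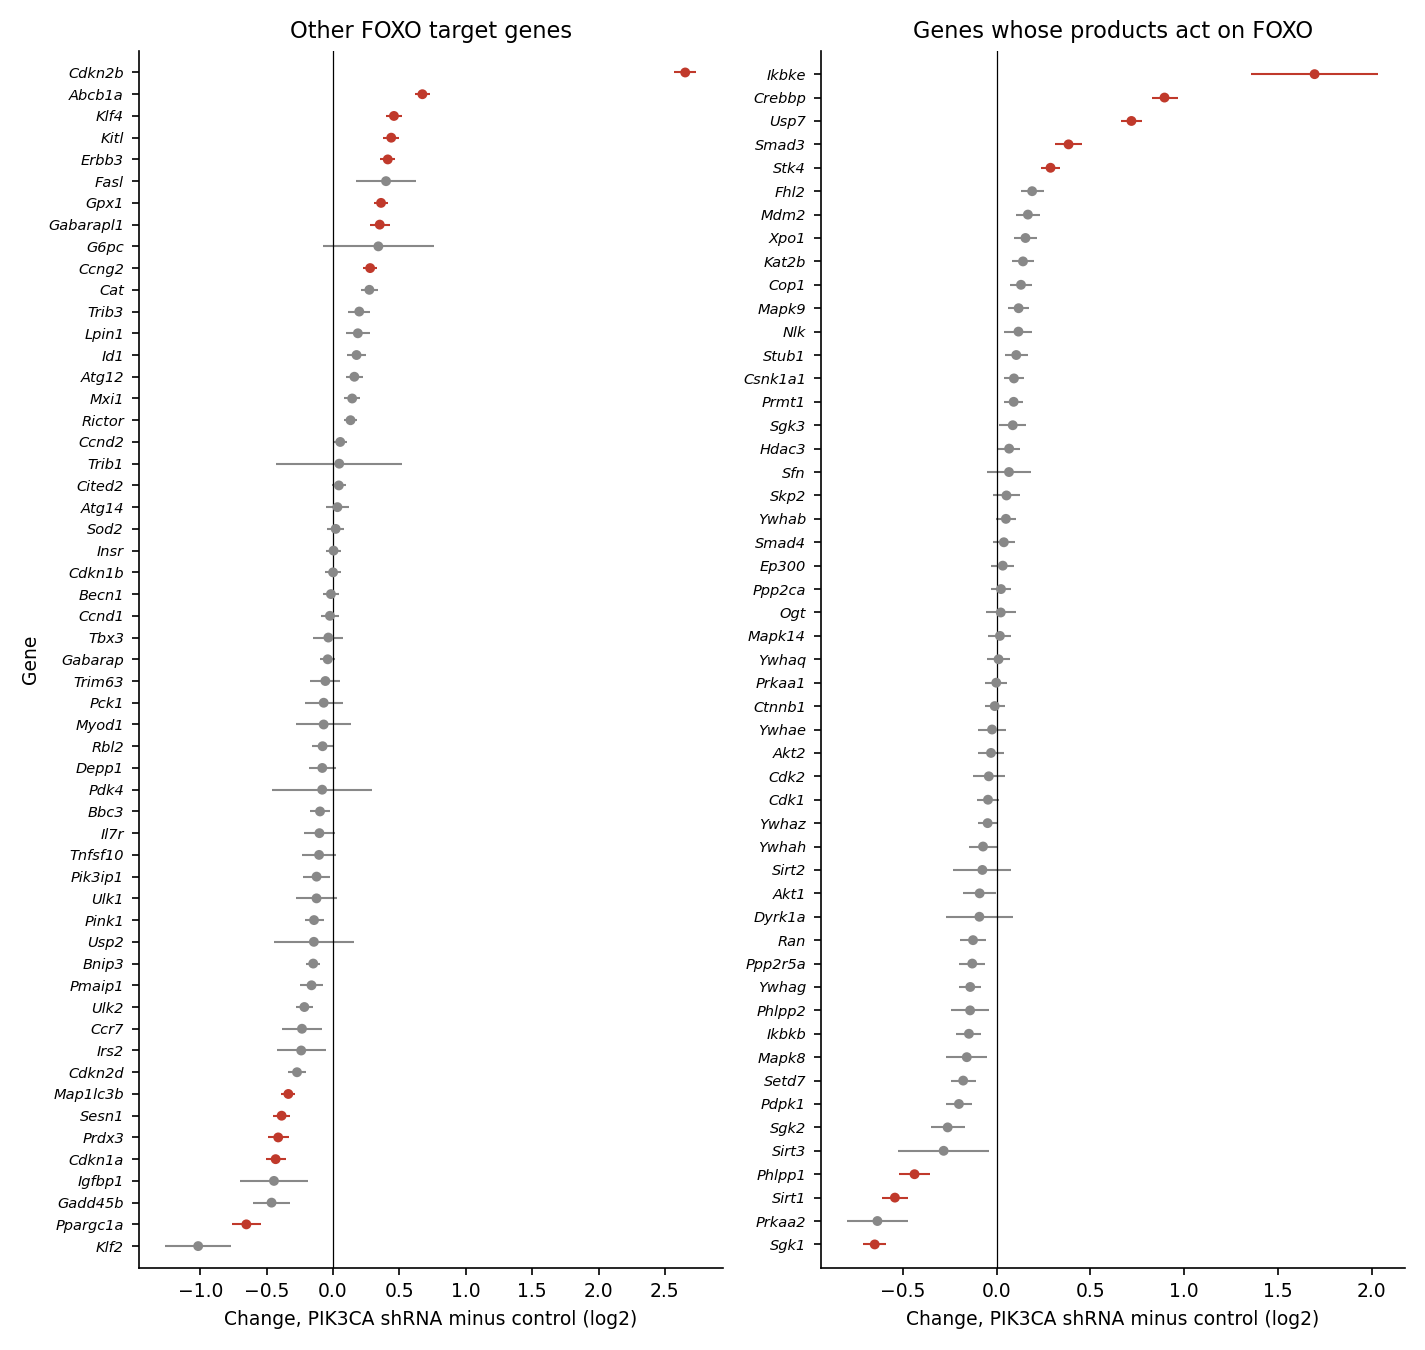
Change of each measured gene, PIK3CA shRNA mean minus control mean in log2 units (horizontal axes) ± its standard error from limma, for 55 other FOXO target genes (left) and 51 genes whose products act on FOXO proteins (right); red marks adjusted p under 0.05. Cdkn2b, at 2.65, stands far right of the other targets, and both lists have red points on either side of 0.

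Among these other targets, 5 of the 44 with a promoter window held the motif, or 11.4%, against 4.05% of all 27025 genes with a window. They were Abcb1a, which rose, Sesn1, which fell, and Trim63, Bbc3 and Mxi1, which did not pass. The motif was in 1 of 2 windows of Sesn1 and in 1 of 3 each of Bbc3 and Mxi1. The list was chosen with earlier results of these data known, and the motif after values were seen. The part of these choices and of the number of windows in the share was not tested. Bbc3, the gene of the death protein PUMA, read -0.10 and Mxi1, a MYC antagonist gene, 0.14. The sites of the called genes, with 8 bases on each side and the motif or its complement in capitals, are shown because these genes moved in opposite directions.
Abcb1a: gagctgggGTAAACAtgctgtca
Sesn1: ccttctacTGTTTACcagccttt
The motif lies at chr5:8567071-8567077 before the start of Abcb1a, and its complement at chr10:41810596-41810602 just after 1 of the starts of Sesn1.

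Of 27 measured relatives of the 10 genes, 3 rose, 3 fell and 21 did not pass limma's test, which is 22.2% against 11.5% of all genes. Of the 27, 20 were above the median brightness of all genes, and the list was chosen with earlier results of these data known. The part of either in the share was not tested. Their median change was -0.16, with 8 above 0 and 19 below. Klf4, Sesn1, Klf2, Gadd45b, Pmaip1, Bbc3 and Trim63 are also on the list of other targets, so the shares of these lists are not independent. Gadd45g, a relative of Gadd45a, went opposite to it, at 164 ± 36.3 in PIK3CA shRNA cells and 300.2 ± 17.7 in control shRNA cells (SD, n = 3 each), a change of -0.83 (limma adjusted p = 0.0298). Gadd45b read -0.46 and did not pass (adjusted p = 0.102), though 1 of its 3 probe sets was lower past the threshold over all probe sets, in a range of -0.49 to 0.02. Arrdc4, the arrestin-domain relative of Txnip that is regulated by glucose, was at 431 ± 17.0 and 572 ± 10.7 (SD, n = 3 each), a change of -0.40 (adjusted p = 0.0141), but its other probe set read 0.08. The BCL2-family death gene Bid rose (0.69), at 1308 ± 121 and 805 ± 70.0 (SD, n = 3 each), and Klf3 rose by 0.27 with 4 of its 7 probe sets of that sign. None of the Klf3 probe sets passed over all probe sets. Sesn2 read -0.25 (adjusted p = 0.537). The count of 6 was 2 without control shRNA replicate 1 or 2 or PIK3CA shRNA replicate 1, and 3 without control shRNA replicate 3. Without control shRNA replicate 1 or 2, both called genes were higher.

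Genes whose products modify, bind or move FOXO proteins were 51 measured of 57 listed. Of these, 5 rose, 3 fell and 43 did not pass, or 15.7%, close to the 11.5% of all genes, and the median change was 0.01. The kinase genes Akt1 (-0.09) and Akt2 (-0.03) did not pass, at limma adjusted p of 0.596 and 0.843. Sgk1, which encodes another kinase that phosphorylates FOXO3, was at 776, 773 and 756 in PIK3CA shRNA cells, with a mean of 768 ± 10.8, against 1215 ± 55.9 in control shRNA cells (SD, n = 3 each). It fell by 0.65 on the log2 scale (limma adjusted p = 0.00366). Sirt1, a deacetylase of FOXO proteins, was at 801 ± 48.6 and 1171 ± 42.0 (SD, n = 3 each), a change of -0.54 (adjusted p = 0.00977), and the AKT phosphatase gene Phlpp1 fell too (-0.44).

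The acetyltransferase gene Crebbp and the deubiquitinase gene Usp7 rose by 0.90 and 0.72, with all 4 Crebbp and 4 of 7 Usp7 probe sets past the threshold in that direction. Crebbp was at 2045 ± 64.2 in PIK3CA shRNA cells and 1093 ± 66.1 in control shRNA cells, and Usp7 at 2486 ± 67.6 and 1504 ± 39.8 (SD, n = 3 each). Both lie near the start of chromosome 16. By limma 6 of the 10 tested genes nearest to Crebbp were higher and 0 lower. Of those nearest to Usp7, 4 were higher and 1 lower, beside 5.87% and 5.63% of all genes. The part of that stretch in the rise of Crebbp and Usp7 was not tested. The dim kinase gene Ikbke (1.69), the signal transducer gene Smad3 (0.38) and the Hippo kinase gene Stk4 (0.29) rose as well. No probe set of Ikbke, Smad3, Stk4 or Phlpp1 passed over all probe sets. Leaving out any 1 of the 6 arrays left 4 or 5 of the 51 past the threshold.

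Partners of the 10 gene products, such as thioredoxins, BCL2 proteins and the ligase core that carries atrogin-1, had 1 of 28 measured past the threshold, or 3.57% against 11.5% of all genes. That gene was Cul1, the cullin scaffold of the ligase, at 1624 ± 65.8 in PIK3CA shRNA cells and 1291 ± 23.8 in control shRNA cells (SD, n = 3 each), a rise of 0.33 (limma adjusted p = 0.0255). The only Cul1 probe set did not pass over all probe sets. Without any 1 of the 6 arrays, 0 of the 28 passed limma's test, with 2 to 5 at an unadjusted p under 0.05.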

How the data were processed

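RNA of 6 samples was hybridised to Affymetrix mouse arrays, 1 array per sample, per the labels' protocols. The authors deposited linear intensities, 1 per probe set and array, with 1 minimum and 1 maximum shared by all 6 arrays, which shows a normalization across arrays whose method the sources used here leave unstated. On each array 15.0% of the deposited intensities were below 16. Detection calls are not used here, and precision is limited by the number of arrays.

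Arrays were scaled to equal medians, and log2 was taken after adding 16. The tests omit 64 control probe sets. Of the 45037 others, 34945 had 1 symbol in the platform annotation, 932 several and 9160 none listed. Each gene was its brightest probe set over all arrays. The comparison used limma 3.58.1 under R 4.3.3 (lmFit, eBayes, two-sided, Benjamini-Hochberg), over 18193 genes or over all probe sets, and 95% intervals come from the same fit. Exact permutation tests used the 20 assignments of 3 against 3 arrays. Neighbours are the 5 tested genes on each side by RefSeq start. Same-numbered replicates did not deviate together (correlations 0.06, -0.01 and -0.02), so the fit has no replicate block.

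The members and lists were chosen with earlier results of these data known. Named genes are the members, Pik3ca, list members past the threshold (up to 6 per direction), a set of textbook genes whatever their values, and the 3 most like each factor. Gabarapl1 was named after its value was seen, and cell type markers, Bbc3 and Mxi1 were named as what a check or motif search returned. The neighbour counts and the motif were chosen after values were seen. Alternatives were a replicate block, 3 scalings, 2 pseudocounts, a filter on dim genes (lowest 25%), 2 other choices of probe set, a variance trend, array weights, adjusted p 0.01 and leaving out each array. The limma fit over genes was the step tested on simulated data. Plots used matplotlib 3.10.9 (Python 3.11.15).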

Additional observations from a re-analysis of the deposited data

How the results depend on the processing

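Over 18 alternatives, 167 of 180 values of the 10 genes, called or not, kept their direction and their side of the threshold. The replicate block, the dim filter, the intensity trend and the stricter threshold leave the change itself as it was. Direction could not turn under those settings. Foxo1, not called, turned to -0.050 with the mean of its probe sets and -0.63 with its most variable probe set (the largest interquartile range). With that probe set 3 of the 10 genes passed, Fbxo32 and Bcl2l11 losing their calls. Quantile or upper-quartile scaling, no scaling and array weights left all 5 calls in place. The deposited arrays already had near-equal medians and quartiles, so the scalings could change little and are a weak check.

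With the replicate block, 410 genes, 1 of the 10 genes (Fbxo32), 2 other targets and 3 regulators passed limma's test. Under that block 0 of the 29 probe sets, 0 relatives and 0 partners passed, with 15, 11 and 6 at an unadjusted p under 0.05. The labels number the replicates but do not state whether same-numbered samples were paired. With an intensity trend and a robust prior, 3192 genes, 10 probe sets, 15 regulators, 11 relatives and 2 partners passed. At adjusted p 0.01 these were 635 genes, 1 probe set, 2 other targets, 4 regulators, 0 relatives and 0 partners (12 and 5 at an unadjusted p under 0.05). The mean of probe sets gave 7 other targets, 3 relatives and 2 partners, and a pseudocount of 64 or leaving out dim genes gave 2 partners. Leaving out 1 array gave 953 to 1138 genes, 5 of the 10 genes each time, 1 to 4 probe sets, 5 to 8 other targets, 4 to 5 regulators, 2 to 5 relatives and 0 partners. The cause of these shifts was not tested. The fits that leave out 1 array also use fewer arrays, and the part of that in their counts was not tested. Dim probe sets, such as those of Trim63, have values too near the pseudocount for a fold change.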

Other observations

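A further probe set is annotated to both Foxo3 and a predicted gene, and so was not among the 29. It was dim and overlapped between the groups, at 42.9 ± 36.2 in PIK3CA shRNA cells and 51.6 ± 50.9 in control shRNA cells (SD, n = 3 each), with a limma adjusted p of 0.948 over all probe sets.

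Sesn1 is among the 10 tested genes nearest to Foxo3 on chromosome 10, of which 2 were lower and 0 higher by limma, with a median change of -0.11. Around Fbxo32 on chromosome 15, 2 of 10 neighbours were higher and 2 lower. Around Foxo4 on chromosome X, 2 of 10 were higher and 0 lower, with a median change of 0.27. With 10 neighbours each, Foxo1 and Klf6 had 1 higher and 0 lower, and Gadd45a 1 and 1. Txnip and Sesn3 had 0 higher and 1 lower, and Bcl6 had 0 of either. Over all genes 5.87% were higher and 5.63% lower.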
